A study of Mus musculus with 12 samples.

Results

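Genes of Schwann cells and of peripheral myelin were followed in spinal cord lesions 7 days after injury. The set holds 8 genes, chosen by symbol: Prx, Pmp2, Ncmap, Cdh19, Drp2, Pmp22, Foxd3 and Erbb3. All 8 were found among the 57180 genes of the deposited tables, and all 8 passed the filter on low counts that left 17820 genes for testing.

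Lesions at T9-T10 with about 0.5 cm of cord on either side were taken from female C57BL/6J wild type mice after a clip-compression injury. In OVX8_SCI7 (n = 4) the ovaries had been removed 8 weeks before the injury, and in OVX2_SCI7 (n = 4) 2 weeks before it. SCI7 mice (n = 4) had the injury without ovariectomy, and all 3 groups were collected 7 days after injury. Removing the ovaries takes away most circulating oestrogen. Cords without injury or with a sham operation were not analysed here, and the effects of the operation, of hormone loss and of the time after it cannot be told apart. All labels give an age of 8 weeks without saying at which step, so age may differ between groups too.

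Schwann cells wrap the axons of peripheral nerves and spinal roots, whereas oligodendrocytes myelinate the cord itself. After a cord injury Schwann cells can enter the lesion from the roots or arise from precursors in the cord, and they can remyelinate central axons. Neuregulin on axons signals through Erbb3 with its partner Erbb2 in Schwann cells. Periaxin (Prx) and Drp2 join the dystroglycan complex on the outer face of the myelin sheath, and Pmp22 and Pmp2 are proteins of compact myelin. Several of these genes are not restricted to Schwann cells: Erbb3 is also used by the oligodendrocyte lineage, and Pmp22 by many cell types. In bulk tissue, fewer cells of a type and less RNA per cell cannot be told apart.

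The libraries held 18222809 to 31781728 estimated counts. In each library, gene levels followed the GC content of the transcripts, and this trend followed the groups. Its Spearman correlation across protein-coding genes was 0.15 to 0.83 in OVX8_SCI7, -0.41 to 0.51 in OVX2_SCI7 and -0.80 to -0.49 in SCI7. Mitochondrial transcripts took 2.2 to 3.36% of counts in OVX8_SCI7, 2.36 to 8.33% in OVX2_SCI7 and 5.35 to 9.35% in SCI7. In both measures OVX2_SCI7 replicate 1 (-0.41 and 8.33%) lay nearest to the SCI7 libraries. OVX2_SCI7 replicate 2 stood apart in transcripts of dorsal root ganglion sensory neurons, whose 16 marker genes summed to 1080 TPM there. Their sum was 80.4 to 256 TPM in OVX8_SCI7, 58.2 TPM at the lowest in OVX2_SCI7 and 73.9 to 322 TPM in SCI7. Outside OVX2_SCI7 replicate 2 the sums rest largely on Prph, Calca and Tac1, with medians of 35.2, 40.2 and 31.2 TPM. Medians there were 0.18 TPM for Pirt and 0.01 TPM for Scn10a. The sums are therefore not a measure of ganglion tissue in each library.

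The GC content of the members bears on every fold change below, and 3 stretches of their coding sequence show its span. Each is the first 120 bases of the longest coding exon, on the coding strand, from GENCODE mouse release 21 (GRCm38, an older build than the authors' GRCm39). Capitals mark G and C. The Cdh19 stretch (chr1:110890069-110890188, minus strand, exon 12 of 12) held 40.8% G and C. The Erbb3 stretch (chr10:128569775-128569894, minus strand, exon 28 of 28) held 52.5%. The Foxd3 stretch (chr4:99656625-99656744, plus strand, exon 1 of 1) held 68.3%.
Cdh19: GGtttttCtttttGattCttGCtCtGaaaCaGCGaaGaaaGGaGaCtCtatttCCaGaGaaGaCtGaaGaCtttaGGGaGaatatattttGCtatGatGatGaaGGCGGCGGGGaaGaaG
Erbb3: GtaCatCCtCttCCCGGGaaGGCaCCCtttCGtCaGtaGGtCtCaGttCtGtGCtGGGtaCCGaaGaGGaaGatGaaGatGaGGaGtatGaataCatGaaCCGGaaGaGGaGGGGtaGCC
Foxd3: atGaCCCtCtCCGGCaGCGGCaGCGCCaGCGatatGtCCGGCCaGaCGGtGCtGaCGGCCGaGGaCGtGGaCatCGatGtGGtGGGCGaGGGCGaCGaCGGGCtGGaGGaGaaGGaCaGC

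Over whole transcripts, GC content was 37.4% for Cdh19, 43.4% for Pmp2, 48.6% for Pmp22 and 48.7% for Drp2. It was 51.2% for Erbb3, 55.0% for Ncmap, 57.7% for Prx and 65.1% for Foxd3. Among 15087 protein-coding genes tested, Cdh19 stood at percentile 1.1 of GC content and Foxd3 at percentile 99.6.

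Levels are given in TPM, which is scaled to transcript length and allows genes to be set side by side. Over the 12 libraries Pmp22 averaged 489 TPM, far above the other members. Prx averaged 28.8, Drp2 25.3, Ncmap 18.9, Cdh19 18.7 and Pmp2 17.3 TPM. Erbb3 averaged 11.8 TPM, and Foxd3 was the lowest at 3.07 TPM. The order between Prx and Pmp2 rests on differences smaller than the spread within the groups.

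**Figure D1:**
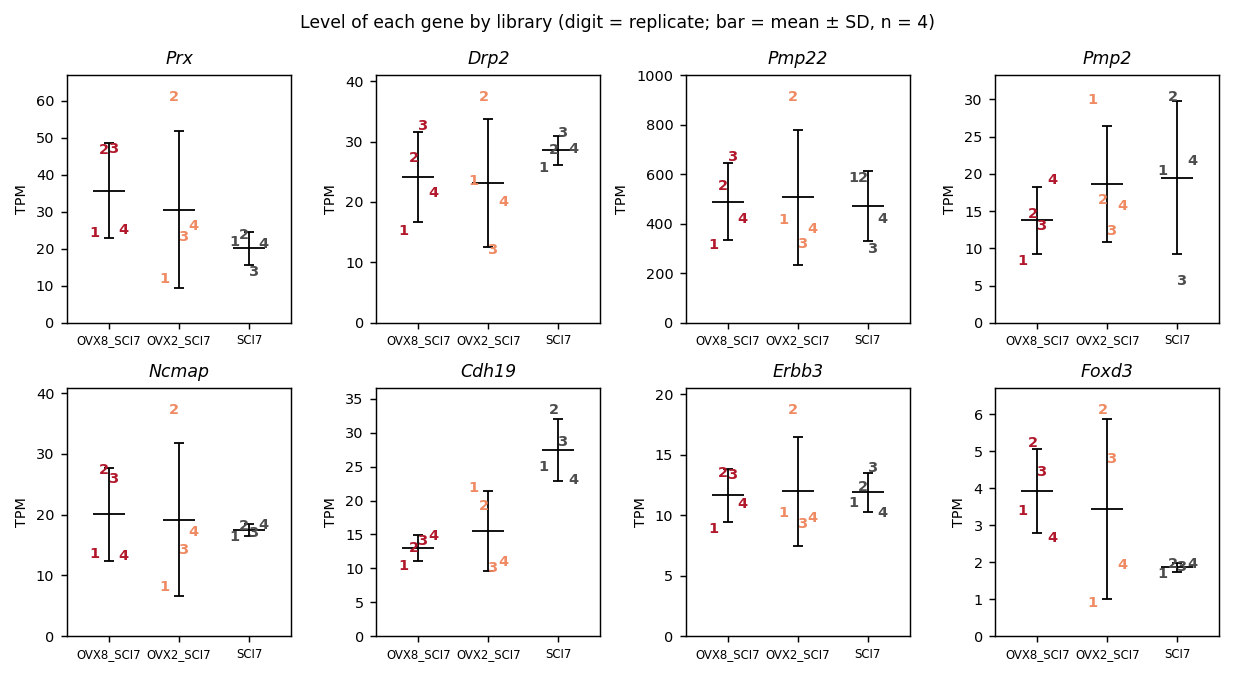
TPM of the 8 genes in each of the 12 libraries, by group on the horizontal axis, with a digit for each replicate and a bar for the mean ± SD (n = 4). Cdh19 lies lower in every OVX8_SCI7 library (10.4 to 14.8 TPM) than in every SCI7 library (23.0 to 33.3 TPM). In TPM, OVX2_SCI7 replicate 2 is the highest of all libraries for 6 of the 8 genes, a count not set against genes at large.

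Cdh19, a cadherin of the Schwann cell lineage, was the member that fell after ovariectomy 8 weeks before injury. Its level was 10.4, 13.0, 14.03 and 14.8 TPM in OVX8_SCI7 libraries 1 to 4, against 25.0, 33.3, 28.6 and 23.0 TPM in SCI7 libraries. No OVX8_SCI7 library reached the lowest SCI7 library. The log2 fold change on counts was -1.11 (SE 0.20, adjusted p = 0.0143, edgeR quasi-likelihood test). Across all genes tested, 27.5% passed that threshold and 15.6% passed it with a lower level in OVX8_SCI7. With 1 of 8, the members did not pass more often than genes at large.

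In OVX2_SCI7, Cdh19 stood at 21.9, 19.2, 10.1 and 10.9 TPM in libraries 1 to 4, also below all 4 SCI7 libraries. Replicates 1 and 2 were the higher ones. Cdh19 was the 1 member whose groups did not overlap in CPM, which held for 12.4% of all genes tested. The log2 fold change against SCI7 was -0.82 (SE 0.19) and did not pass (adjusted p = 0.052, edgeR). No gene passed in this comparison (0.0% of 17820) with edgeR, although 5787 had an unadjusted p under 0.05 and DESeq2 called 3701. Without OVX2_SCI7 replicate 1 the fold change was -1.0 and passed (adjusted p = 0.00342, edgeR), where 34.7% of all genes passed. DESeq2 called Cdh19 with all libraries (adjusted p = 0.00408), where it called 20.8% of all genes. Both comparisons share the SCI7 libraries.

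The fall of Cdh19 ran with its GC content. Among the 1509 genes of the lowest decile of GC content (31.9 to 41.7%), which includes Cdh19, the median log2 fold change for OVX8_SCI7 against SCI7 was -0.89, and 67.8% were called lower. In a fit with an offset that removes, library by library, the dependence of levels on GC content and transcript length, Cdh19 had a log2 fold change of -0.02 (SE 0.15, adjusted p = 0.968), and no gene was called. For OVX2_SCI7 against SCI7 the same fit gave Cdh19 a log2 fold change of 0.07. Such a fit removes any difference that follows GC content, whatever its source, and what gives rise to the trend was not tested. The call was also lost without OVX8_SCI7 replicate 2 (-1.07, adjusted p = 0.0573), where no gene at all passed.

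**Figure D2:**
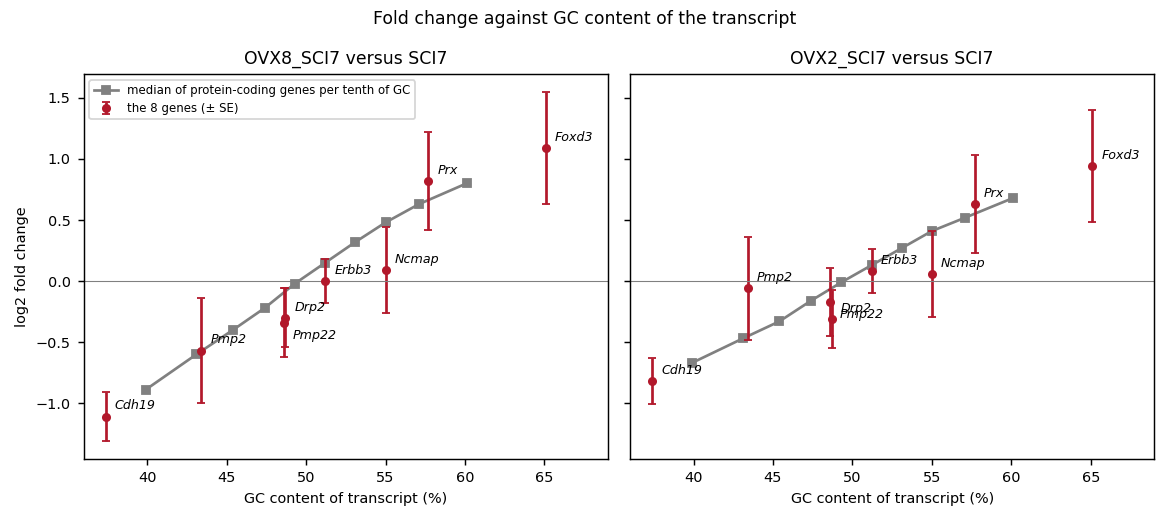
Log2 fold change (± SE) of the 8 genes against the GC content of their transcripts in percent, for OVX8_SCI7 versus SCI7 and OVX2_SCI7 versus SCI7; grey squares are medians of protein-coding genes in each decile of GC content. Cdh19 (37.4%) and Foxd3 (65.1%) sit at both ends of the same slope as the grey medians.

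Foxd3, a transcription factor of the neural crest and its glial derivatives, lay at the other end of the GC range. Its level was 3.39, 5.24, 4.45 and 2.65 TPM in OVX8_SCI7, against 1.69, 1.95, 1.86 and 1.94 TPM in SCI7. The groups did not overlap in TPM or in CPM. For CPM, the groups of 39.1% of all genes tested did not overlap, so 2 of 8 members (Cdh19 and Foxd3) is not more than among genes at large. On counts, the change of 1.09 (log2, SE 0.46) did not pass (adjusted p = 0.0913, edgeR). With the GC and length offset it was 0.05 (SE 0.32).

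In OVX2_SCI7, Foxd3 spanned the whole range of the study. It was 0.890, 6.11, 4.80 and 1.93 TPM in libraries 1 to 4, with the lowest and the highest of all 12 libraries in this group. The log2 fold change against SCI7 was 0.94 (SE 0.46, adjusted p = 0.176, edgeR). Without replicate 1 it was 1.24 and passed (adjusted p = 0.0137, edgeR), where 34.7% of all genes passed. The test for OVX8_SCI7 against SCI7 also passed without that library (1.08, adjusted p = 0.0176, edgeR), where 37.2% of all genes passed. In a fit of the 8 libraries of that comparison alone it passed too (1.08, adjusted p = 0.00636, edgeR), where 43.0% of all genes passed.

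Prx encodes periaxin, the scaffold of myelinating Schwann cells. Its level was 24.2, 46.7, 46.9 and 25.0 TPM in OVX8_SCI7, against 21.9, 23.7, 13.7 and 21.4 TPM in SCI7. Replicates 2 and 3 of OVX8_SCI7 were high, and replicates 1 and 4 lay just above the highest SCI7 library; in CPM the groups overlapped. The difference of 0.82 (log2 fold change, SE 0.40) did not pass (adjusted p = 0.132, edgeR). In a fit of these 8 libraries alone it passed (0.81, adjusted p = 0.0357, edgeR), where 43.0% of all genes passed. Without OVX2_SCI7 replicates 1 and 2 it also passed (0.82, adjusted p = 0.0261, edgeR), where 41.9% of all genes passed.

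In OVX2_SCI7, Prx was 11.8, 61.0, 23.2 and 26.1 TPM. Replicate 1 was the lowest and replicate 2 the highest of the 12 libraries. The log2 fold change against SCI7 was 0.63 (SE 0.40, adjusted p = 0.283, edgeR) and 0.21 (SE 0.35) without replicate 2. With the GC and length offset it was 0.13 (SE 0.31) for OVX8_SCI7 and 0.09 (SE 0.31) for OVX2_SCI7, each against SCI7.

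Drp2, dystrophin-related protein 2, binds periaxin at the sheath's outer membrane. It stood at 15.2, 27.2, 32.6 and 21.4 TPM in OVX8_SCI7, against 25.6, 28.6, 31.4 and 28.8 TPM in SCI7. The groups overlapped, and the SCI7 libraries lay close together. Its log2 fold change was -0.30 (SE 0.24, adjusted p = 0.353, edgeR). In OVX2_SCI7 it was 23.5, 37.4, 11.97 and 19.9 TPM, a log2 fold change of -0.31 (SE 0.24) against SCI7. Leaving out OVX2_SCI7 replicates 1 and 2 gave -0.69 (adjusted p = 0.0483, edgeR), where 38.8% of all genes passed. That call rests on the remaining pair of libraries.

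Pmp22, the tetraspan protein of compact myelin whose gene dosage causes inherited neuropathy in humans, was the most abundant member. It stood at 314.9, 552.5, 670.1 and 418.2 TPM in OVX8_SCI7, against 585.4, 586.4, 296.6 and 419.3 TPM in SCI7. The groups overlapped throughout. OVX2_SCI7 libraries held 414.6, 911.4, 317.8 and 380.6 TPM. On counts the log2 fold change was -0.34 (SE 0.28) for OVX8_SCI7 and -0.17 (SE 0.28) for OVX2_SCI7, each against SCI7. On log2(TPM + 1) it was 0.05 and 0.02, so no direction can be given for Pmp22.

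Pmp2, the fatty acid binding protein of peripheral myelin, did not move with Prx. It stood at 8.30, 14.6, 13.0 and 19.2 TPM in OVX8_SCI7, against 20.3, 30.3, 5.61 and 21.8 TPM in SCI7. SCI7 replicate 3 was the lowest of the 12 libraries, below every OVX8_SCI7 library. The log2 fold change of Pmp2 was -0.57 (SE 0.43, adjusted p = 0.324, edgeR). Limma-voom with quality weights gave -0.94 and called it (adjusted p = 0.00925), where 63.0% of all genes were called. OVX2_SCI7 libraries held 29.9, 16.4, 12.3 and 15.7 TPM, a log2 fold change of -0.06 (SE 0.42) against SCI7.

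Ncmap encodes a protein of non-compact Schwann cell myelin. It stood at 13.6, 27.4, 25.9 and 13.2 TPM in OVX8_SCI7, against 16.3, 18.2, 17.0 and 18.3 TPM in SCI7. As for Prx, OVX8_SCI7 replicates 2 and 3 were high; replicates 1 and 4 lay below every SCI7 library. OVX2_SCI7 libraries held 8.15, 37.2, 14.2 and 17.2 TPM. On counts, its log2 fold change was 0.09 (SE 0.35) for OVX8_SCI7 and 0.06 (SE 0.35) for OVX2_SCI7, each against SCI7. Without OVX2_SCI7 replicate 2 the second value was -0.34 (SE 0.29).

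Erbb3, the neuregulin receptor, varied least. It stood at 8.86, 13.5, 13.3 and 10.9 TPM in OVX8_SCI7, at 10.2, 18.7, 9.27 and 9.75 TPM in OVX2_SCI7 and at 11.04, 12.3, 13.9 and 10.2 TPM in SCI7. The 3 groups overlapped, and OVX2_SCI7 replicate 2 lay above all other libraries. The log2 fold change was 0.00 (SE 0.18) for OVX8_SCI7 and 0.08 (SE 0.18) for OVX2_SCI7, each against SCI7.

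**Figure D3:**
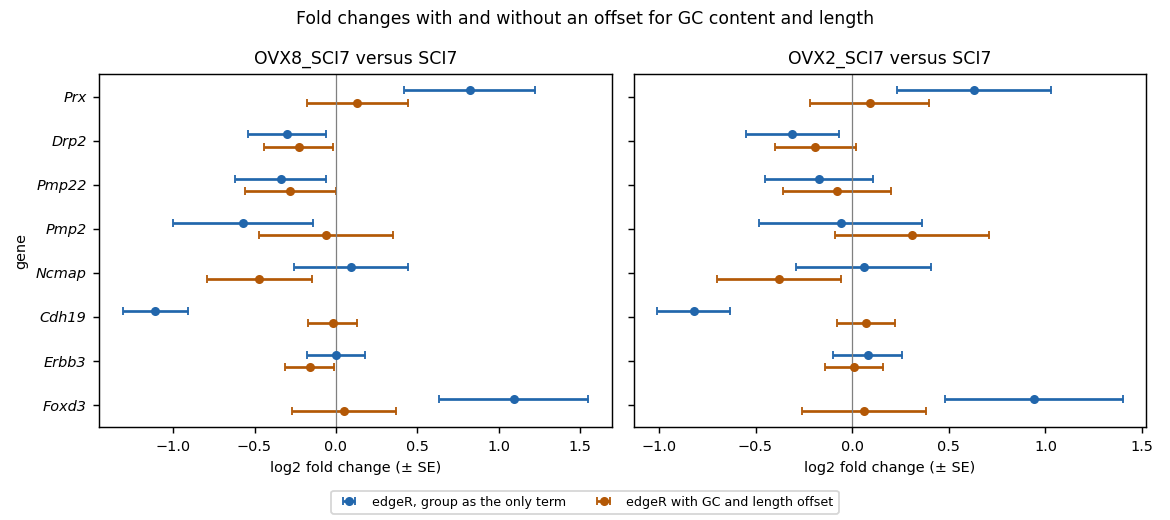
Log2 fold change (± SE) of the 8 genes for OVX8_SCI7 versus SCI7 and OVX2_SCI7 versus SCI7, from edgeR with group alone in the model (blue) and with an added offset for GC content and length (orange). For OVX8_SCI7 versus SCI7 the offset brings Cdh19 to -0.02, Foxd3 to 0.05 and Prx to 0.13.

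Between both ovariectomy groups no member differed beyond the spread. For OVX8_SCI7 against OVX2_SCI7 the log2 fold changes ran from -0.51 (Pmp2, SE 0.43) to 0.19 (Prx, SE 0.39), and Cdh19 was at -0.28 (SE 0.19). The groups overlapped in CPM for all 8 members, and did not for 1.32% of all genes tested. No gene passed (0.0% of 17820) with edgeR, 393 had an unadjusted p under 0.05, and DESeq2 called 6. A joint test of the 3 groups called Cdh19 (adjusted p = 0.0285, edgeR) and no other member, while 14.8% of all genes passed it.

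Single libraries stood apart from their groups. OVX2_SCI7 replicate 2 was the highest of the 12 libraries in TPM for Prx, Ncmap, Drp2, Pmp22, Foxd3 and Erbb3, at 1.46 (Drp2) to 3.13 (Foxd3) times the median of the other 11. The share of all genes tested that were highest in this library is not given here. Counts of highest genes, here and below, therefore cannot be set against genes at large. In CPM, Pmp22 was highest in SCI7 replicate 1 (618.6 against 538.9) and Foxd3 in OVX2_SCI7 replicate 3 (7.075 against 6.869). For Pmp2 and Cdh19, OVX2_SCI7 replicate 2 lay in the middle in TPM, at 1.05 and 1.3 times the median of the other 11. Cldn19, a claudin of Schwann cell autotypic junctions, was 29.6 TPM there and 5.47 to 23.4 TPM elsewhere. Pirt, a membrane protein of sensory neurons, was 59.3 TPM there and 0.0600 to 8.47 TPM elsewhere, and Avil, an actin regulator of these neurons, was 74.2 TPM against at most 12.4.

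Of 12 other peripheral myelin genes 6 were highest in that library, and Fgd4 was lowest there (5.82 TPM, against 6.48 to 13.6 elsewhere). Of 10 genes of non-myelinating and injury-state Schwann cells 6 were highest there, while Sox2 and Btc, at 1.05 and 1.04 times the median of the other libraries, were not. Ngfr, the low-affinity neurotrophin receptor of non-myelinating and denervated Schwann cells and of sensory neurons, was 107.5 TPM there and 2.99 to 28.4 TPM elsewhere. Gfra3, the artemin receptor, which sensory neurons also express, was 17.9 TPM there and 0.10 to 3.95 TPM elsewhere. Its next highest libraries were OVX2_SCI7 replicate 3 (3.95 TPM) and SCI7 replicate 3 (1.24 TPM), which also held 7.85 and 8.47 TPM of Pirt.

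The same library was highest for all 16 sensory neuron genes, and genes of the cord's own glia were high in it too. Of 13 oligodendrocyte genes 7 were highest there, and the list's sum was 1.51 times the median of the other libraries. Mbp and Mag, proteins of central and peripheral myelin, were at 1.85 and 1.92 times that median and Cnp, a myelin enzyme, at 1.73 times. Of 5 astrocyte genes 2 were highest there, with Gfap, the astrocyte filament protein, at 1.57 times the median. These factors are within the range of the 6 members named above. The genes named here for their level in that library, other than Mbp, Pirt and Avil, were chosen after their values were seen. Col1a1, a fibrillar collagen, was lower, at 0.314 times the median. How much root or ganglion tissue this library holds was not measured. The library's part in the group's values was not tested beyond leaving it out and a fit with the summed sensory neuron genes as a covariate.

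High myelin genes and high sensory neuron genes did not always go together. OVX8_SCI7 replicates 2 and 3 were the next highest libraries for Prx and Ncmap, and held 20.8 and 23.4 TPM of Cldn19. Pirt was 7.53 TPM in replicate 2 and 0.150 TPM in replicate 3. SCI7 replicate 3 went the other way, with 8.47 TPM of Pirt, the highest of the SCI7 group, and 13.7 TPM of Prx, the lowest of that group. The GC trend was highest in OVX8_SCI7 replicates 2 and 3 (0.83 and 0.75). It was 0.51 in OVX2_SCI7 replicate 2, where Prx and Ncmap were highest, and -0.49 in SCI7 replicate 3, the least negative of its group. The part of this trend in these levels was not tested.

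**Figure D4:**
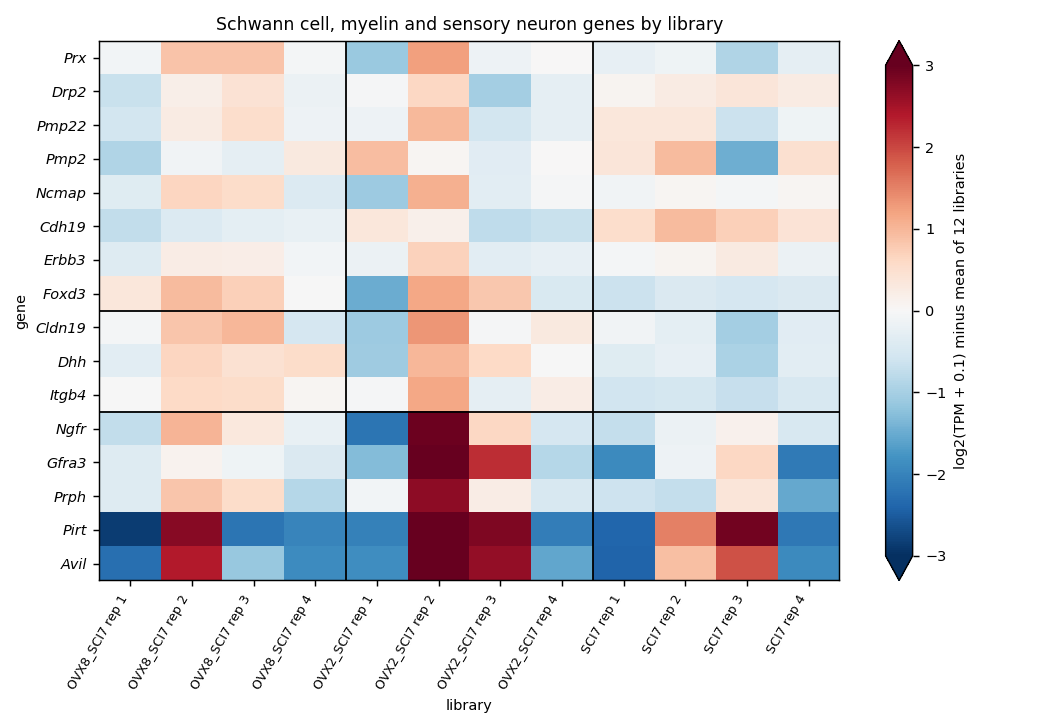
Log2(TPM + 0.1) of the 8 genes, of other peripheral myelin genes (Cldn19, Dhh, Itgb4) and of Schwann cell or sensory neuron genes (Ngfr, Gfra3, Prph, Pirt, Avil), each minus its mean over the 12 libraries; colours end at -3 and 3. OVX2_SCI7 replicate 2 is high in most rows, while OVX8_SCI7 replicates 2 and 3 are high in Prx, Ncmap and Cldn19.

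Within groups, members fell apart in how they varied. Likeness was taken as Pearson's r of log2(CPM + 0.5) deviations from the group means over 12 libraries, as a description. With Prx it was 0.92 for Ncmap, 0.79 for Foxd3, 0.69 for Erbb3 and 0.67 for Pmp22. It was 0.38 for Drp2, 0.01 for Pmp2 and -0.25 for Cdh19. Over the 11 libraries without OVX2_SCI7 replicate 2 these values were 0.87, 0.71, 0.46, 0.55, 0.05, 0.14 and -0.56 in the same gene order. Depth and GC trend differed between the libraries and bear on all genes of a library at once. Their part in these values was not tested.

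Among 14333 genes ranked by likeness to Prx, Cldn19 came first (r = 0.985) and Dhh, the hedgehog ligand of Schwann cells, next among the listed genes (0.938). Outside the gene lists the leading 10 were Fam178b (0.945), Vps52, Ift122, Chadl, Thop1, Dhx37, Mvb12b, Pcyox1l, Gpc1 and Clptm1 (0.923). Their transcripts held 53.1 to 67.4% G and C. Of these 10, 3 were also among the leading 10 over 11 libraries.

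Related genes were counted by lists, beside the 11.9% of all genes that rose and the 15.6% that fell for OVX8_SCI7 against SCI7. Of 12 other peripheral myelin genes 1 rose: Itgb4, the laminin-binding integrin subunit of the sheath (log2 fold change 0.73, SE 0.22, adjusted p = 0.0316). The list's median was 0.38, against 0.01 over all genes tested. With the GC and length offset these medians were 0.04 and -0.06. Egr2, the regulator of myelination, was at 0.38 (SE 0.31) and did not pass. Of 10 genes of non-myelinating and injury-state Schwann cells, 2 fell: Btc, an EGF-family ligand (-0.98, SE 0.23), and Sox2, a factor of immature glia that astrocytes also express (-0.52, SE 0.18).

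Among 9 neuregulins, receptors and processing enzymes, 1 rose and 1 fell. Nrg2, a neuregulin, had a log2 fold change of 1.27 (SE 0.31, adjusted p = 0.017), and Erbb4, a neuregulin receptor found on neurons, one of -1.34 (SE 0.45, adjusted p = 0.0452; edgeR). Nrg1, the axonal signal to Erbb3, was at -0.54 (SE 0.46; another row of this symbol, with 1 count over all 12 libraries, was not tested), and Erbb2, the partner receptor, at 0.76 (SE 0.44); neither passed. Of 8 neural crest transcription factors 1 fell, Zeb2 (-0.45, SE 0.15), which promotes Schwann cell differentiation. Sox10, needed for the Schwann cell and oligodendrocyte lineages, was at 0.56 (SE 0.22, adjusted p = 0.0795).

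In the dystroglycan complex, which Drp2 and periaxin join, 1 of 10 genes rose and 2 fell. Dmd, dystrophin, had a log2 fold change of -1.04 (SE 0.23) and Sgcb, a sarcoglycan, one of -0.53 (SE 0.13). With the GC and length offset Dmd was at -0.36 and Sgcb at -0.07. Itgb4 was then at -0.06, Btc at -0.23, Nrg2 at 0.29, Erbb4 at -0.54 and Zeb2 at 0.33, and Sox2 at -0.67; none of them passed.

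For OVX2_SCI7 against SCI7 no gene of these lists passed, and genes with the smallest p-values in each list are given as values. They were Itgb4 (log2 fold change 0.74, SE 0.22) and Fgd4, a regulator of Schwann cell shape (-0.66, SE 0.21), among the other peripheral myelin genes. Among the non-myelinating and injury-state genes they were Btc (-0.70, SE 0.23) and Gfra3 (3.35, SE 1.12). Gfra3 was 0.25, 17.9, 3.95 and 0.38 TPM in the OVX2_SCI7 libraries, with replicate 2 far above the others. Among the neural crest factors they were Zeb2 (-0.47, SE 0.15) and Pax3 (-0.67, SE 0.26), and among the neuregulin genes Nrg2 (0.93, SE 0.31) and Erbb4 (-0.86, SE 0.45). In the dystroglycan list Dmd was at -0.77 (SE 0.22). The sensory neuron list had a median of 1.86, with Prph, a neuronal filament protein, at 1.80 (SE 0.65) and P2rx3, an ATP receptor, at 2.42 (SE 1.08). These values rest on replicate 2: without it the list's median was -0.03, Prph was at 0.72 (SE 0.47) and P2rx3 at 0.74 (SE 0.92), and Gfra3 was at 1.75 (SE 0.95). Itgb4 was then at 0.48 (SE 0.16). No listed gene passed for OVX8_SCI7 against OVX2_SCI7.

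Markers of other cells of cord, roots and surrounding tissue were read beside these results. For OVX8_SCI7 against SCI7, none of 16 sensory neuron genes passed. Their median log2 fold change was -0.38, and -1.53 without OVX8_SCI7 replicate 2, the library of that group with their highest sum (256 TPM). With all libraries, the smallest p-values were those of Scn9a (-1.66) and Tlx3 (1.11). Of 13 oligodendrocyte genes 3 fell: Aspa, Ugt8a and Ermn (-1.36, -1.35 and -1.33). Mbp was at 0.32 (SE 0.26) and did not pass. In each of the oligodendrocyte precursor and astrocyte lists 1 gene fell: Enpp6 (-1.20) of 7 and Gja1 (-0.63) of 5. Of 5 microglial genes 2 rose, Csf1r (0.70) and Tmem119 (1.07), and P2ry12 fell (-1.14). With the GC and length offset none of these genes passed: Aspa was at -0.72, Ugt8a at -0.31, Ermn at -0.29, Enpp6 at -0.57, Gja1 at -0.29, Csf1r at 0.26, Tmem119 at 0.32 and P2ry12 at -0.19.

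Of 4 perineurial genes 1 rose, Lypd2 (1.66), and of 7 genes of fast skeletal muscle 2 rose, Actn3 (2.01) and Myh4 (3.66). With the offset Lypd2 was at 0.95, Actn3 at 1.41 and Myh4 at 3.43, and none passed. The muscle genes summed to 9.41 to 99.0 TPM in OVX8_SCI7, 3.23 to 25.9 in OVX2_SCI7 and 8.77 to 31.5 in SCI7. None of 9 fibroblast and meningeal genes passed, with Col1a1 at 1.51 (SE 0.97) and Crabp2 at 1.07 (SE 0.72). None of 6 cord neuron genes passed, with Slc17a6 at -1.01 and Slc32a1 at 0.76, and none of 5 endothelial genes, with Tek at -0.44 and Cldn5 at 0.67. Of 6 melanocyte genes 2 were tested, Dct (-0.30) and Pmel (0.32), and neither passed, and no adipocyte gene of 4 passed the filter; both lists were low, at 2.14 to 6.51 and 0.0800 to 9.15 TPM in sum. Apart from the fit with the sensory neuron covariate, the part of these cell types in the levels of the 8 genes was not tested.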

How the data were processed

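Reads were trimmed with fastp 0.23.4, aligned with HISAT2 2.2.1 to GRCm39 and quantified with RSEM 1.3.3, per the submitters' processing notes; library kit, strand and RNA selection are not given in the sources used here. The authors deposited expected counts (estimated counts, rounded here to whole numbers) and TPM values for 12 libraries; FPKM values and 9 columns that match no single sample were not used. The test was edgeR 4.0.16 (R 4.3.3): filterByExpr, TMM, 1 fit of all 12 libraries with group as the only term, robust quasi-likelihood F-tests, and Benjamini-Hochberg adjustment over 17820 genes at 0.05. CPM values are TMM-scaled from the deposited counts. Exons of Foxd3, Pmp2 and Prx overlap another annotated gene in GENCODE release 21, so their reads may be shared.

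Data for OVX8_SCI7 versus SCI7 were simulated over 17600 genes. Their spread between replicates was set lower than in the real libraries, whose common biological coefficient of variation was 0.312. Changes were placed only in genes averaging more than 5 CPM, above the level of Foxd3 (3.91 CPM). Under these settings, which favour recovery, 99% of changes of 1 and 100% of changes of 2 on the log2 scale were recovered, with 10 false calls. Recovery of such changes in the real libraries, with their spread and GC trend, was not tested. Depth sets a floor of 3 counts at 0.0944 to 0.165 CPM, which covers counting error only. P-values set the differences between groups against the spread between these biological replicates. Those of the main test do not account for the GC trend that followed the groups. For GC content and length, 1 transcript per gene was taken from GENCODE release 21, the longest coding one. Each library's offset was a spline on both (5 degrees of freedom), estimated on genes averaging 5 CPM or more. The members, lists and tests were chosen with earlier results of these data known. Named genes are the 8 members, 10 fixed genes, for each list up to 4 genes that passed (otherwise the 2 with the smallest p; for OVX2_SCI7 versus SCI7 only in the 5 Schwann-related lists and the sensory list, for OVX8_SCI7 versus OVX2_SCI7 in none), and the 10 genes most like Prx. Some genes that this rule names are not reported here. Alternatives were other scalings, filters and tools (DESeq2 1.42.0, limma 3.58.1 with voom or with log2(TPM + 1) and log2(TPM + 0.1)), the replicate block, a sensory neuron covariate, the GC offset and left-out libraries.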

Additional observations from a re-analysis of the deposited data

How the results depend on the processing

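The cause of each change below was not tested, except that the GC and length offset takes out by construction what follows GC content and that a fit with fewer libraries has less to rest on. For OVX8_SCI7 against SCI7, 1 member was called. The number was 4 with limma-voom quality weights (63.0% of all genes called), 3 in the fit of the 8 libraries alone (43.0%) and 3 without OVX2_SCI7 replicates 1 and 2 (41.9%). It was 0 with the GC and length offset, alone (0.0% called), with the replicate block (0.00561%), without OVX2_SCI7 replicate 2 (0.0%) and without replicates 1 and 2 (4.18%). Leaving out single libraries gave 0 to 2: 0 without OVX8_SCI7 replicate 2, where 0.0% of all genes were called, 2 without OVX2_SCI7 replicate 1 (37.2%), and 1 otherwise (6.7 to 33.4%). For OVX2_SCI7 against SCI7, 0 were called. The number was 1, Cdh19, with the stricter filter (7.96%), DESeq2 (20.8%), limma-voom (5.01%) and its quality weights (54.4%), 3 without OVX2_SCI7 replicates 1 and 2 (38.8%), and 0 to 2 without single libraries, 2 only without OVX2_SCI7 replicate 1 (34.7%) and 0 otherwise (0.0 to 0.0221%). For OVX8_SCI7 against OVX2_SCI7 it was 0 under every alternative run. The joint test called 1. It called 4 with quality weights (64.3%), 2 without OVX2_SCI7 replicates 1 and 2 (41.1%), and 0 with log2(TPM + 1) (4.54%), log2(TPM + 0.1) (3.61%), log2(TPM + 1) without filter (0.0331%), the replicate block (0.0%) and all 4 offset fits (0.0 to 5.94%). Without single libraries it called 0 to 2, with 0.0 to 33.5% of all genes called; the 2 came without OVX2_SCI7 replicate 1 (33.5%). The offset fits without OVX2_SCI7 replicate 2 or replicates 1 and 2, and the alternatives to the joint test, were chosen after seeing the data.

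Of 696 fold changes of members under 29 alternatives, 113 had the opposite sign to the value reported. All 113 belonged to members called in neither fit.

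For OVX8_SCI7 against SCI7, the offset gave Ncmap -0.47 and Erbb3 -0.16. Offset and replicate block gave Pmp2 0.07, Ncmap -0.50 and Erbb3 -0.17. The offset without OVX2_SCI7 replicate 2, or without replicates 1 and 2, gave Ncmap -0.47 and Erbb3 -0.17. Erbb3 was -0.01 with DESeq2, DESeq2 size factors, the replicate block and the 8 libraries alone, -0.03 with the stricter filter and log2(TPM + 1), filtered or not, and -0.04 with log2(TPM + 0.1). Pmp22 was 0.05 in all 3 TPM fits.

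For OVX2_SCI7 against SCI7, the offset gave Pmp2 0.31, Ncmap -0.38 and Cdh19 0.07. Offset and replicate block gave Pmp2 0.41, Ncmap -0.45, Cdh19 0.05 and Foxd3 -0.04. The offset without replicate 2 gave Prx -0.21, Pmp2 0.32, Ncmap -0.79, Foxd3 -0.15 and Erbb3 -0.13. The offset without replicates 1 and 2 gave Ncmap -0.72 and Erbb3 -0.09, and leaving both out with no offset gave Ncmap -0.11 and Erbb3 -0.05. The TPM fits gave Pmp22 0.02 and Erbb3 -0.04, with Pmp2 0.06 and Ncmap -0.06 at a pseudocount of 1 and Pmp2 0.08 and Ncmap -0.08 at 0.1. Limma-voom gave Pmp2 0.11 and Ncmap -0.07, and its quality weights Ncmap -0.04. The replicate block gave Pmp2 0.05 and Ncmap -0.05. The sensory neuron covariate gave Pmp2 0.12, Ncmap -0.22 and Erbb3 -0.06.

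For OVX8_SCI7 against OVX2_SCI7, the offset gave Ncmap -0.09, Drp2 -0.04 and Foxd3 -0.01, and with the replicate block Ncmap -0.05 and Drp2 -0.03. The offset without OVX2_SCI7 replicate 2 gave Cdh19 0.11 and Pmp22 0.06. Without replicates 1 and 2 it gave Pmp2 0.01, Cdh19 0.08, Pmp22 0.18 and Foxd3 -0.11, and with no offset Cdh19 was 0.08, Pmp22 0.08 and Erbb3 0.06. Drp2 was -0.01 with DESeq2, DESeq2 size factors and the stricter filter. The TPM fits gave Pmp22 0.02 and Erbb3 0.00, quality weights Pmp22 0.02 and Erbb3 0.08, and the covariate Erbb3 0.09.

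Leaving out single libraries moved OVX8_SCI7 against SCI7 between -0.07 and 0.25 for Ncmap and between -0.08 and 0.07 for Erbb3. For OVX2_SCI7 against SCI7 the range was -0.38 to 0.20 for Pmp2, -0.34 to 0.28 for Ncmap, -0.36 to 0.04 for Pmp22 and -0.10 to 0.15 for Erbb3. For OVX8_SCI7 against OVX2_SCI7 it was -0.07 to 0.60 for Prx, -0.19 to 0.42 for Ncmap, -0.18 to 0.19 for Drp2, -0.16 to 0.46 for Foxd3 and -0.15 to 0.09 for Erbb3.

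Replicate numbers did not pair the libraries: over 12 same-number pairs the correlation of deviations from group means ran from -0.626 to 0.500, and in 5 it was over 0.1. With the number as a block, Cdh19 was still called for OVX8_SCI7 against SCI7, where 19.0% of all genes were called. Foxd3 was the member with the fewest reads, at 1.11 to 7.07 CPM per library, above the floor of 3 counts in all 12.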

Other observations

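Pearson's r of log2(CPM + 0.5) deviations from group means was taken between members and a few related genes over 12 libraries, as a description with pairs chosen after their values were seen. Foxd3 varied much like Ngfr (0.89) and Dhh (0.88), and over the 11 libraries without OVX2_SCI7 replicate 2 these values were 0.91 and 0.84. The value between Cdh19 and Foxd3 was -0.44 over 12 libraries and -0.70 over 11. These genes stood at percentiles 1.1 and 99.6 of GC content, and the GC trend differed between libraries of the same group. The part of that trend in these values was not tested.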
